A study of Mus musculus with 59 samples.

Results

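The genes described here are 36 markers of excitatory neurons of the mouse cerebral cortex, chosen by name: 10 of upper layers, 16 of deep layers and 10 shared by excitatory neurons across layers. All 36 were found among the 51456 genes of the deposited table, and all 36 were among the 16839 genes that passed the filter used for testing, a mean of at least 10 normalized counts over all libraries. RNA was sequenced from prefrontal cortex dissected on postnatal day 25, in mice of the C57BL/6J strain. The 59 libraries came from 29 Chd8-S62X heterozygous (HT-labelled) and 30 wild-type (WT-labelled) samples, each genotype divided by treatment with fluoxetine, lithium or vehicle and by sex (29 female, 30 male). The drugs reached the pups through maternal milk from postnatal day 3 to 24, a span of 3 weeks, and vehicle mice are the comparison for both drugs. Each of the 12 groups held 5 libraries except HT-labelled fluoxetine females, which held 4. The labels do not say whether replicates came from separate dams or litters or whether tissue was pooled, so each p-value rests on the spread among these libraries, which may be partly technical.

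The mammalian neocortex is built in layers that are born in order, with deep layers first and upper layers later. Upper layer neurons mostly connect cortical areas with each other, whereas deep layer neurons send axons to the thalamus, brainstem and spinal cord and include the subplate-derived cells at the base of the cortex. Transcription factors such as Cux1 and Cux2 in upper layers and Fezf2, Bcl11b and Tbr1 in deep layers set these identities during development, and several remain expressed in the maturing cortex. The Chd8 protein is a chromatin remodelling enzyme, and variants in its gene are associated with autism. Fluoxetine is a serotonin reuptake inhibitor and lithium a mood stabiliser.

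Chd8 itself was higher in HT-labelled libraries, at 5115 to 6626 normalized counts (median 5907, n = 29), than in WT-labelled libraries, at 2828 to 4229 (median 3635, n = 30), with no overlap. A higher level goes against the reading of a heterozygous stop allele as loss of transcript, so the genotype groups are called by their labels throughout. Slc17a7, the vesicular glutamate transporter of cortical excitatory neurons, was high in every library, at 33642 to 57827 normalized counts in HT-labelled libraries and 40711 to 57063 in WT-labelled libraries. Library sums were close together, at 30342600 to 33683900 normalized counts. Markers of 2 regions next to the prefrontal cortex varied widely between libraries. The sum of 5 olfactory bulb projection neuron genes (Cdhr1, Tbx21, Eomes, Doc2g and Shisa3) ran from 216 to 15902 normalized counts, a ratio of 73.6, and that of 13 genes of striatal neurons (such as Drd1, Drd2 and Adora2a) ran from 7116 to 49021. No gene of either list was at 0 in all libraries, and 8 libraries had a striatal level more than 5 robust SDs above the median.

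Per kilobase of merged exon, the level of the 36 genes spanned a wide range. Pcp4, a calmodulin-binding protein of deep layers, had the highest mean level at 6789 normalized counts per kilobase, although its exons overlap those of Igsf5 on the same strand. The LIM-only gene Lmo4 followed at 2128, the MADS-box transcription factor gene Mef2c at 1652, the basic helix-loop-helix gene Neurod6 at 1382 and the vesicular zinc transporter gene Slc30a3 at 1247. The lowest mean levels per kilobase were those of Scnn1a, a sodium channel subunit used as a layer IV marker, at 12.2, of Nxph4, a secreted neurexophilin of the deepest cortical cells, at 48.1, and of the heparan sulfate endosulfatase gene Sulf1 at 60.5. Neurod1 shares a stretch of exon with Cerkl on the same strand. Exons of Cux1, Syt6, Sox5, Hs3st4 and Neurod1 are overlapped by other genes on the opposite strand, and the strand setting of the counting is not given in the sources used here. Cux2 was higher than its paralogue Cux1 on this scale, at 332 against 132 normalized counts per kilobase.

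The genes differed strongly in how much they varied between libraries of a group. The median within-group SD of log2 normalized counts was 0.209 over the 36 genes, against 0.163 over all genes tested, and 28 of the 36 lay above the latter. It was 0.247 for deep layer genes, 0.211 for shared genes and 0.144 for upper layer genes. In 12 of 16 deep layer genes the highest library was at least 2 times the lowest, against 2 of 10 shared and 2 of 10 upper layer genes. Nxph4 had the widest range, from 14.4 to 183 normalized counts over the 59 libraries (median 83.4), a ratio of 12.7. Syt6, a synaptotagmin of deep layers, ran from 425 to 3523 (median 1248), a ratio of 8.30. The SNARE regulator gene Cplx3, a subplate marker, ran from 163 to 602 (median 301), and Fezf2, the zinc finger factor of subcortical projection neurons, ran from 312 to 1053 (median 767). At the other end, Pou3f2, a POU domain transcription factor of upper layers, varied by a ratio of 1.36.

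Promoters of 5 genes on which the results below turn are printed as the 300 bases from 250 before to 50 after an annotated start, from RefSeq on GRCm38.p6, in the direction of transcription. They belong to Cux1 (chr5:136565932-136566231, minus strand), Fezf2 (chr14:12345816-12346115, minus strand), Syt6 (chr3:103574995-103575294, plus strand), Neurod2 (chr11:98329596-98329895, minus strand) and Neurod6 (chr6:55681214-55681513, minus strand). Capitals mark the E-box motifs CAGATG and CAGCTG, searched on both strands, which are recognised by basic helix-loop-helix factors such as the Neurod proteins.
Cux1 promoter: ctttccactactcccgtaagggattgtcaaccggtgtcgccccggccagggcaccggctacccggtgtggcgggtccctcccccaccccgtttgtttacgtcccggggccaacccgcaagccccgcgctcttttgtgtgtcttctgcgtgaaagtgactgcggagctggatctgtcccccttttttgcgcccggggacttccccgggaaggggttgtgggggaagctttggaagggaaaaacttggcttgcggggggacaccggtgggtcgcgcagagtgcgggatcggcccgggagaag
Fezf2 promoter: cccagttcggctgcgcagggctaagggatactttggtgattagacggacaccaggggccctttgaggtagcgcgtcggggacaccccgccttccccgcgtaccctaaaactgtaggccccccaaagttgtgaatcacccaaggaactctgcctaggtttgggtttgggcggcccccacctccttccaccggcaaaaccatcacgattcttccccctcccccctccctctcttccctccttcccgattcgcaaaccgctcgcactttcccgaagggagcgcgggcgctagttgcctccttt
Syt6 promoter: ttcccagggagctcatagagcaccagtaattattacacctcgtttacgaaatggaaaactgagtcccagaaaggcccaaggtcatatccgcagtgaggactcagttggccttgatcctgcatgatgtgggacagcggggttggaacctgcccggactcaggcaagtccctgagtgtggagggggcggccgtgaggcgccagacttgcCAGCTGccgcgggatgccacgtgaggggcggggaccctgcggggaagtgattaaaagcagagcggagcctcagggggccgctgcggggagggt
Neurod2 promoter: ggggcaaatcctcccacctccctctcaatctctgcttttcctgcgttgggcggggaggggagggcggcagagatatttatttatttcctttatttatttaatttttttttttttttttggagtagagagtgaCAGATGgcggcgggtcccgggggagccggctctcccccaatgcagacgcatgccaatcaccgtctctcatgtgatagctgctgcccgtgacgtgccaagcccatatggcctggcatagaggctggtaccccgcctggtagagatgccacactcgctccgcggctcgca
Neurod6 promoter: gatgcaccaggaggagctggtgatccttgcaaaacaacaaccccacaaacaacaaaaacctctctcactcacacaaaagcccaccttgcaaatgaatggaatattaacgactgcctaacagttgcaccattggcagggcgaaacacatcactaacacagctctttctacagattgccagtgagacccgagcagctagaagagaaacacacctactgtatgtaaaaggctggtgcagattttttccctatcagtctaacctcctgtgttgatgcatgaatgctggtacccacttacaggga
The Syt6 window held 1 CAGCTG and the Neurod2 window 1 CAGATG, and the other 3 held neither. Windows were found for 28 of the 36 genes, 40 windows in all. Nxph4, the gene called between genotypes below, had no window, so its promoter is not printed. CAGATG occurred in 5 of these 40 (12.5%), against 17.1% of 32544 windows of all genes, and CAGCTG in 4 of 40 (10%), against 16.4%. Both shares were below those of all windows. The CAGCTG windows belonged to Syt6 and Cplx3 alone, and some Syt6 windows overlap each other. Counted by gene, CAGATG occurred in 5 of 28 (17.9%) and CAGCTG in 2 of 28 (7.14%). No share by gene was taken over all genes, and none of these counts says whether a factor binds there.

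Averaged over treatments and sexes, Nxph4 was the only gene of the 36 that passed the test between HT-labelled and WT-labelled libraries, and it was higher in HT-labelled ones. The test used throughout was limma with a Benjamini-Hochberg adjusted p under 0.05 over all genes tested. That is 1 of 36 genes, against 7.98% of all genes tested in this comparison (3.67% higher and 4.31% lower). Nxph4 (chr10:127525473-127534559, minus strand, GRCm38) had a lowest value of 23.3, a median of 94.9 and a highest value of 183 normalized counts in 29 HT-labelled libraries, and 14.4, 69.5 and 129 in 30 WT-labelled libraries. The ranges overlapped widely, and 21 of 29 HT-labelled libraries lay above the median of the WT-labelled group of the same treatment and sex. The difference was 0.67 ± 0.21 on the log2 scale (SE; limma adjusted p = 0.0352). In tissue of mixed cells, more cells of a type and more RNA per cell cannot be told apart.

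Nxph4 was above 0 in this comparison in each of the 6 strata of treatment and sex, by 0.21 to 1.44 on the log2 scale. The widest gap was in fluoxetine females, at 86.6 ± 16.7 normalized counts in HT-labelled libraries (SD, n = 4) and 34.6 ± 20.6 in WT-labelled libraries (SD, n = 5). Fluoxetine males averaged 106 ± 19.2 in HT-labelled and 72.3 ± 48.5 in WT-labelled libraries (SD, n = 5 each). Under lithium the means were 79.5 ± 28.5 in HT-labelled and 70.8 ± 31.4 in WT-labelled females and 107 ± 49.6 in HT-labelled and 71.4 ± 18.5 in WT-labelled males (SD, n = 5 each). Under vehicle the means were 88.1 ± 49.8 in HT-labelled and 66.2 ± 29.0 in WT-labelled females and 111 ± 57.1 in HT-labelled and 75.0 ± 45.7 in WT-labelled males (SD, n = 5 each). The ranges of the genotype groups overlapped in all 6 strata. Within fluoxetine alone, the means with equal weight for each sex were 96.4 normalized counts for HT-labelled (9 libraries) and 53.4 for WT-labelled mice (10 libraries). The difference did not pass the test (limma adjusted p = 0.0958). The test of whether the fluoxetine effect differed between genotypes gave 0.71 ± 0.51 on the log2 scale (SE; limma adjusted p = 0.889).

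Bulb and striatal markers lay mostly above 0 in the same comparison. All 5 bulb genes lay above 0 in HT-labelled minus WT-labelled libraries (median 0.35 on the log2 scale, none called), with sums of 346 to 15902 normalized counts (median 2444) in HT-labelled and 216 to 10228 (median 2277) in WT-labelled libraries. Of 12 striatal genes tested, 11 lay above 0 and none was called, with sums of 7116 to 26870.5 (median 9977) in HT-labelled and 7630.4 to 49021 (median 9535) in WT-labelled libraries. With the bulb marker level in the fit, the Nxph4 difference was 0.58 (limma adjusted p = 0.00956). The striatal level in the fit ended the call at 0.60 (limma adjusted p = 0.0541), as did leaving out the 8 libraries with high striatal markers (0.65, limma adjusted p = 0.0921). Leaving out any 1 of 11 single libraries also ended the call: HT-labelled lithium male 3, HT-labelled vehicle females 4 and 5, HT-labelled vehicle males 3 and 4, WT-labelled fluoxetine males 3 and 4, WT-labelled lithium female 3, WT-labelled vehicle female 3, and WT-labelled vehicle males 2 and 3. Over all 59 such fits the difference ran from 0.59 to 0.73 and the limma adjusted p from 0.0149 to 0.0565.

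The remaining 35 genes did not pass the test between genotypes. Upper layer genes lay below 0 in 9 of 10 cases (median -0.06 on the log2 scale), shared genes in 9 of 10 (median -0.10) and deep layer genes in 9 of 16 (median -0.01), against a median of 0.0016 over all genes tested. At an unadjusted p under 0.05 stood 2 genes above and 8 below 0, a share to be read against 24.1% of all genes. The closest below 0 was Rasgrf2, a Ras exchange factor of upper layers, with 4427 to 6297 normalized counts (median 5219) in HT-labelled and 4523 to 7264 (median 5492) in WT-labelled libraries. Its difference was -0.09 ± 0.03 (SE; limma adjusted p = 0.069). Mef2c stood at -0.11 ± 0.04 (limma adjusted p = 0.0729) and Cux2 at -0.12 ± 0.05 (limma adjusted p = 0.102). Fezf2 had the lowest value of the 36, at -0.18 ± 0.11 (limma adjusted p = 0.295), and Syt6 one of the highest, at 0.30 ± 0.19 (limma adjusted p = 0.335). With the bulb level in the fit, Mef2c was also called, at -0.10 (limma adjusted p = 0.0337).

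**Figure D1:**
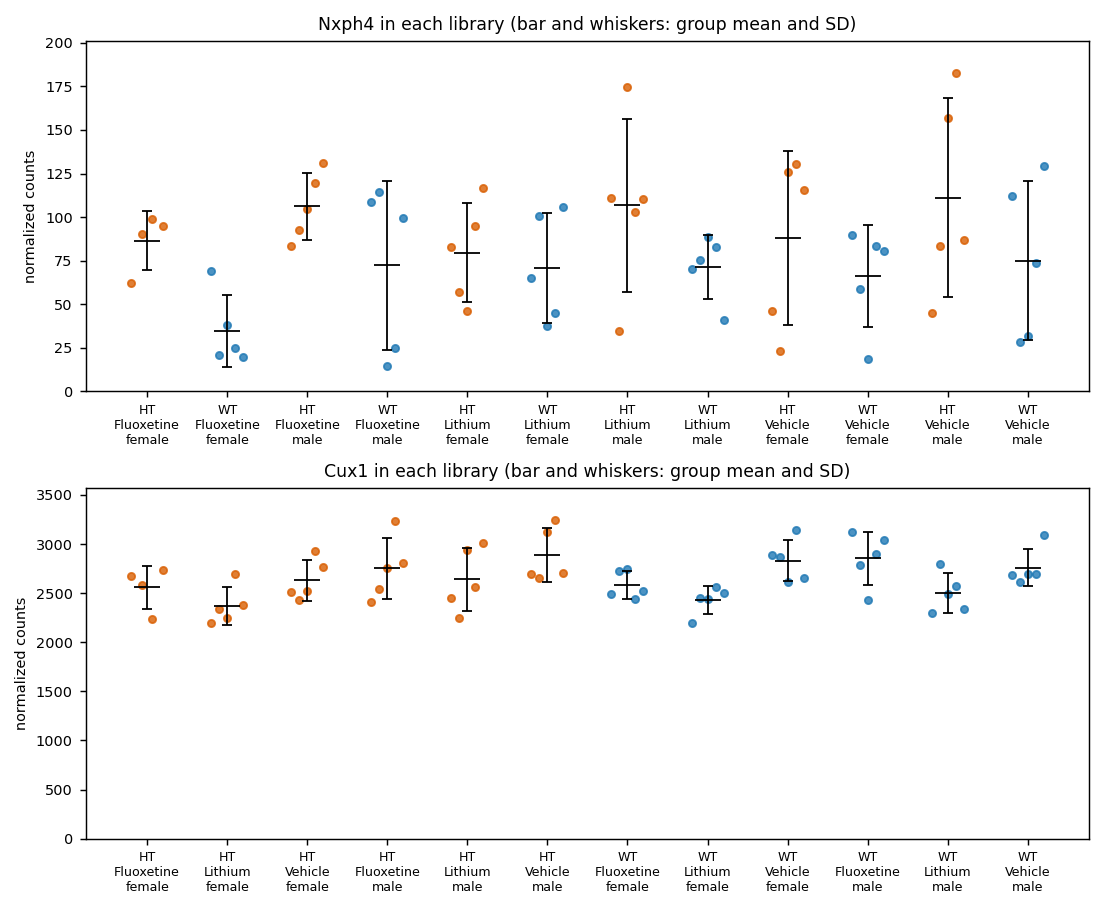
Normalized counts of Nxph4 and Cux1 in each library (points), with the mean and SD of each of the 12 groups of genotype, treatment and sex. Nxph4 runs from 14.4 to 183 with overlapping groups, and the lithium groups of Cux1 lie mostly below their vehicle groups.

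Cux1 was lower under lithium than under vehicle, and no other gene of the 36 passed the test: 1 of 36, against 4.41% of all genes tested (2.8% higher and 1.61% lower). Cux1 (chr5:136248135-136567490, minus strand, GRCm38), a homeodomain transcription factor of upper layer neurons that many other cells also express, had a lowest value of 2193, a median of 2449.8 and a highest value of 3008 normalized counts in 20 lithium libraries. In 20 vehicle libraries these values were 2428, 2699 and 3247. The groups overlapped, and 16 of 20 lithium libraries lay below the median of the vehicle group of the same genotype and sex. The difference was -0.16 ± 0.04 on the log2 scale (SE; limma adjusted p = 0.0092).

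Cux1 was lower under lithium in 4 of 4 strata of genotype and sex, by -0.22 to -0.13 on the log2 scale. HT-labelled females averaged 2371 ± 195 normalized counts under lithium and 2632 ± 208 under vehicle, and HT-labelled males 2639.5 ± 325 under lithium and 2887 ± 277 under vehicle (SD, n = 5 each). WT-labelled females averaged 2429 ± 141 under lithium and 2832 ± 212 under vehicle, and WT-labelled males 2500.04 ± 201 under lithium and 2759 ± 189.97 under vehicle (SD, n = 5 each). In WT-labelled females the lithium libraries, at 2193 to 2561, all lay below the vehicle libraries, at 2609 to 3139, and in the other 3 strata the ranges overlapped. None of the 4 strata passed the test alone. Leaving out any 1 of the 40 lithium and vehicle libraries kept the call, with differences of -0.17 to -0.15 and limma adjusted p of 0.00476 to 0.0186. The bulb level in the fit gave -0.15 (limma adjusted p = 0.000785). Cux2, the paralogue of Cux1, had a lithium difference of -0.02 ± 0.06 (limma adjusted p = 0.889).

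Apart from Cux1, no gene passed the test for lithium. Over the whole lists, deep layer genes lay above 0 in 13 of 16 cases (median 0.08 on the log2 scale), upper layer genes, Cux1 among them, below 0 in 9 of 10 (median -0.04), and shared genes were divided 5 and 5, against a median of -0.00038 over all genes. Trib2, a tribbles pseudokinase gene, had 1363 to 2575 normalized counts (median 1951) in lithium libraries and 1376 to 2495 (median 1586) in vehicle libraries, with a difference of 0.17 ± 0.06 (limma adjusted p = 0.121). The thyroid hormone binding protein gene Crym stood at 0.17 ± 0.07 (limma adjusted p = 0.182) and Tle4, a Groucho family corepressor of layer VI, at 0.17 ± 0.07 (limma adjusted p = 0.191). These 3 deep layer genes and Pcp4 had an unadjusted p under 0.05, as did Cux1, a share to be read against 18.7% of all genes. With the bulb level in the fit, Rorb, a nuclear receptor of layer IV, was also called at -0.11 (limma adjusted p = 0.0392), and Mef2c at -0.12 (limma adjusted p = 0.049).

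In the same comparison all 12 striatal genes tested lay above 0, with 1 called, and their sums ran from 8801 to 49021 normalized counts (median 10322) in lithium and from 7116 to 26870.5 (median 8808) in vehicle libraries. All 5 bulb genes lay below 0 with none called, at 409 to 13063 (median 2408) in lithium and 346 to 15902 (median 2968) in vehicle libraries. Of the 8 libraries with high striatal markers, 4 were lithium libraries and 2 vehicle libraries. With the striatal level in the fit, Cux1 kept its call (limma adjusted p = 0.0122). The part of these markers in the deep layer values was not tested.

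**Figure D2:**
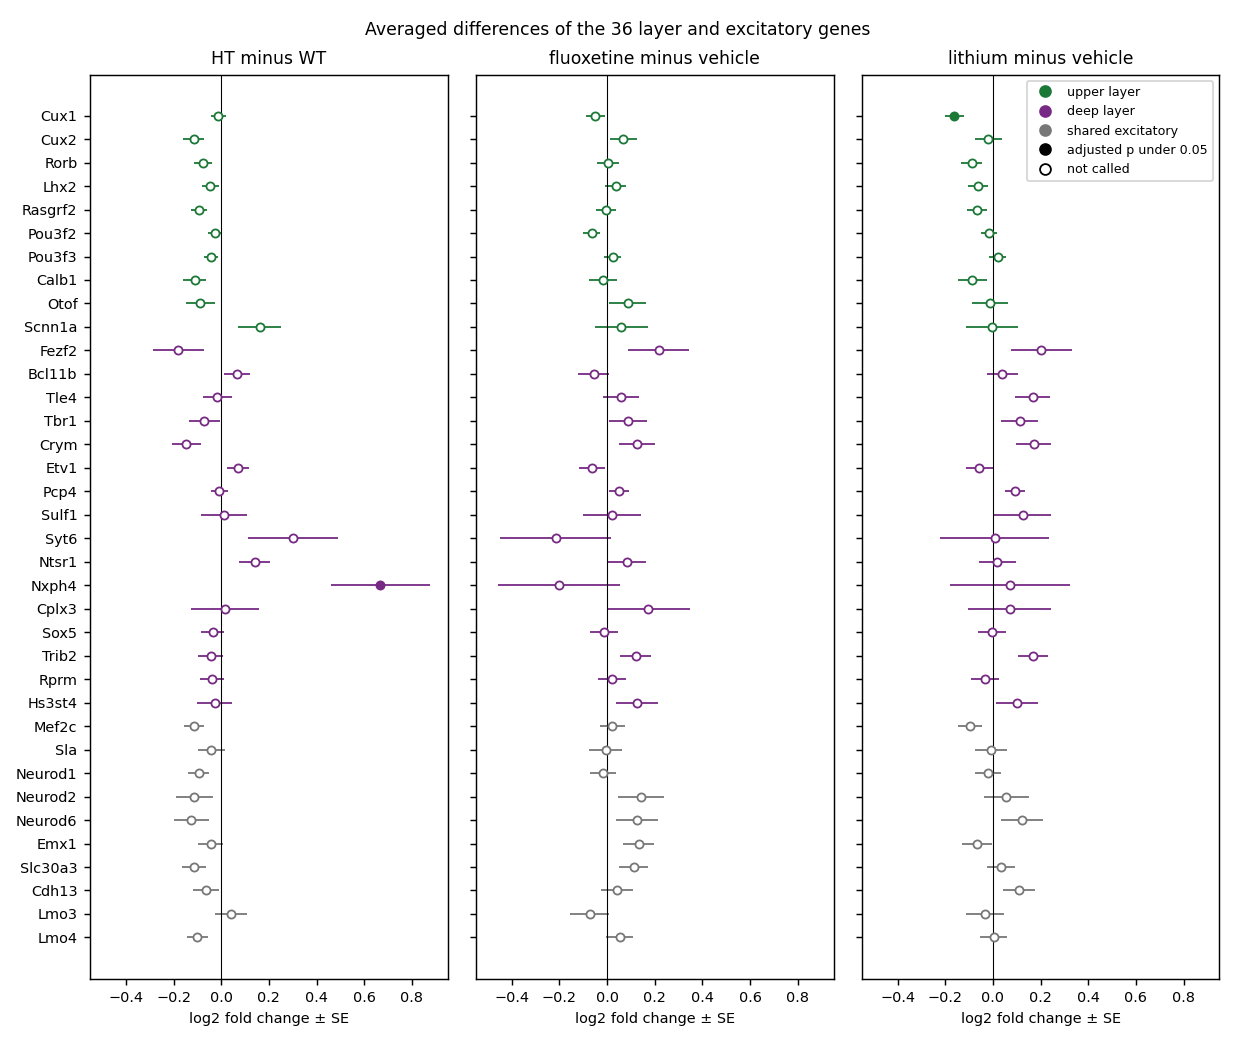
Log2 fold changes of the 36 genes (points, with SE bars) in the averaged genotype, fluoxetine and lithium comparisons, coloured by layer list and filled where the adjusted p was under 0.05. Nxph4 at 0.67 between genotypes and Cux1 at -0.16 under lithium are the filled points.

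None of the 36 genes passed the test for fluoxetine, against 0.0653% of all genes (11 genes). By unadjusted p under 0.05 there was 1 gene, against 11.9% of all genes. This was Emx1, a homeobox gene of the dorsal telencephalon, with 279 to 469.98 normalized counts (median 380.4) in 19 fluoxetine and 254 to 443 (median 363) in 20 vehicle libraries. Its difference was 0.13 ± 0.06 on the log2 scale (SE; limma adjusted p = 0.409). Slc30a3 had 2798 to 4767 (median 3724) in fluoxetine and 2503 to 4221 (median 3366) in vehicle libraries, a difference of 0.11 ± 0.06 (limma adjusted p = 0.454). Trib2 had 1278 to 2417 (median 1883) in fluoxetine and 1376 to 2495 (median 1586) in vehicle libraries, a difference of 0.12 ± 0.06 (limma adjusted p = 0.454). All 3 overlapped between the groups nearly throughout. Upper layer genes lay above 0 in 6 of 10 cases, deep layer genes in 11 of 16 and shared genes in 7 of 10. The 5 bulb genes all lay below 0 (median -0.64, none called), with sums of 216 to 12093 (median 919.6) in fluoxetine and 346 to 15902 (median 2968) in vehicle libraries.

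Between females and males none of the 36 genes passed the test, against 0.154% of all genes (26 genes), and 4 had an unadjusted p under 0.05, against 7.85% of all genes. Trib2 had 1278 to 2111 normalized counts (median 1646) in 29 female and 1499 to 2575 (median 1894) in 30 male libraries, a difference of -0.15 ± 0.05 on the log2 scale (SE; limma adjusted p = 0.399). Cux1 had 2193 to 3139 (median 2526) in female and 2244.5 to 3247 (median 2699) in male libraries, a difference of -0.09 ± 0.03 (limma adjusted p = 0.43). Otof, a calcium sensor of vesicle release found in upper layers, had 651 to 1224 (median 947) in female and 621 to 1489.8 (median 857) in male libraries, a difference of 0.14 ± 0.06 (limma adjusted p = 0.545). The ranges of these 3 genes overlapped. The fourth was Bcl11b, at -0.12 ± 0.05 (limma adjusted p = 0.558).

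No gene of the 36 was called in the 7 comparisons within a genotype or a treatment, of which those between genotypes called 0.849% of all genes under fluoxetine, 0.267% under lithium and 0.202% under vehicle. Fluoxetine called 0% of all genes in HT-labelled and 0.19% in WT-labelled mice, and lithium 0.238% in HT-labelled and 0.214% in WT-labelled mice. The smallest adjusted p there was that of Nxph4 under fluoxetine, given above, and 0 to 13 of the 36 had an unadjusted p under 0.05, against 5.09% to 14.7% of all genes. The 13 were found between genotypes under fluoxetine, where all genes gave 14.7%. None was called in the 14 comparisons within single strata. Between genotypes these called 0.0238% of all genes in fluoxetine females, 0.0475% in fluoxetine males, 0.0238% in lithium females, 0.0534% in lithium males, 0.0297% in vehicle females and 0.0238% in vehicle males. Between drugs and vehicle they called 0% except for fluoxetine in WT-labelled males (0.0297%), with a smallest limma adjusted p of 0.193 among the 36. None was called in the 5 tests of whether an effect differed between genotypes or sexes, in which no gene of the 16839 was called and the smallest limma adjusted p among the 36 was 0.653. Up to 6 genes in a stratum had an unadjusted p under 0.05, against 3.23% to 10.5% of all genes, and up to 3 in a test of a difference, against 2.29% to 6.18%.

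Layers were compared through a layer level, the mean over a list of log2 normalized counts centred on each gene's mean over the 59 libraries, which is a description with no test. Between HT-labelled and WT-labelled libraries the upper level differed by -0.045, the deep level by 0.044 and the shared level by -0.077 on the log2 scale. The SD between single libraries of a group was 0.088 for the upper, 0.18 for the deep and 0.15 for the shared level, which describes the scatter of libraries and is not the error of a difference between group means. Without Nxph4 and Scnn1a, whose means lay under 100 normalized counts, the genotype difference was -0.068 for the upper and 0.0024 for the deep level, and without the 8 libraries with high striatal markers the deep difference was 0.012. Lithium minus vehicle gave -0.050 for the upper and 0.078 for the deep level, and upper minus deep was -0.13. Fluoxetine minus vehicle gave 0.014 for the upper, 0.033 for the deep and 0.053 for the shared level. Single libraries moved the fluoxetine values by more than 1.5 times. The upper value was 0.0018 without HT-labelled vehicle male 3 and the deep value 0.011 without WT-labelled fluoxetine female 1 and 0.056 without WT-labelled fluoxetine male 3. The shared value was 0.030 without HT-labelled vehicle male 3.

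Between genotypes within fluoxetine, upper and deep levels lay on opposite sides of 0. With equal weight for each sex, upper minus deep averaged -0.11 in HT-labelled and 0.17 in WT-labelled fluoxetine libraries, a difference of -0.28. It was -0.33 to -0.22 with any 1 of the 19 libraries left out and -0.26 without those with high striatal markers. The other treatments did not share it: the same difference was -0.030 under vehicle and 0.045 under lithium. For the deep level alone, HT-labelled minus WT-labelled was 0.0095 under vehicle and -0.054 under lithium. With the same weights, the upper level averaged -0.027 in HT-labelled and 0.078 in WT-labelled fluoxetine libraries. The deep level averaged 0.086 in HT-labelled and -0.091 in WT-labelled ones, a difference of 0.18. With only genes of a mean of at least 100 normalized counts, which leaves Nxph4 out of the deep list, that difference was 0.11. The group that stood farthest out was WT-labelled fluoxetine females, with an upper level of 0.11 ± 0.057 and a deep level of -0.16 ± 0.21 (SD, n = 5). HT-labelled fluoxetine females had -0.017 ± 0.093 for the upper and 0.083 ± 0.16 for the deep level (SD, n = 4). The deep levels of these groups overlapped, from -0.15 to 0.21 in HT-labelled and from -0.38 to 0.20 in WT-labelled fluoxetine females.

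Oligodendrocyte, striatal and bulb markers lay above 0 in the same comparison. Between genotypes within fluoxetine, 8 of 8 oligodendrocyte genes lay above 0 with none called, and their sums ran from 131705 to 221161 normalized counts (median 194389) in HT-labelled and from 69444 to 211663 (median 130950) in WT-labelled libraries. All 12 striatal genes tested lay above 0 with none called, at 7916 to 18692 (median 11142) in HT-labelled and 8398 to 14126 (median 9213) in WT-labelled libraries. All 5 bulb genes lay above 0 with none called, at 442 to 12093 (median 2335) in HT-labelled and 216 to 7754 (median 885) in WT-labelled libraries. Of the libraries with high striatal markers, 2 were HT-labelled and 0 WT-labelled fluoxetine libraries. The part of these markers in the layer levels was not tested.

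**Figure D3:**
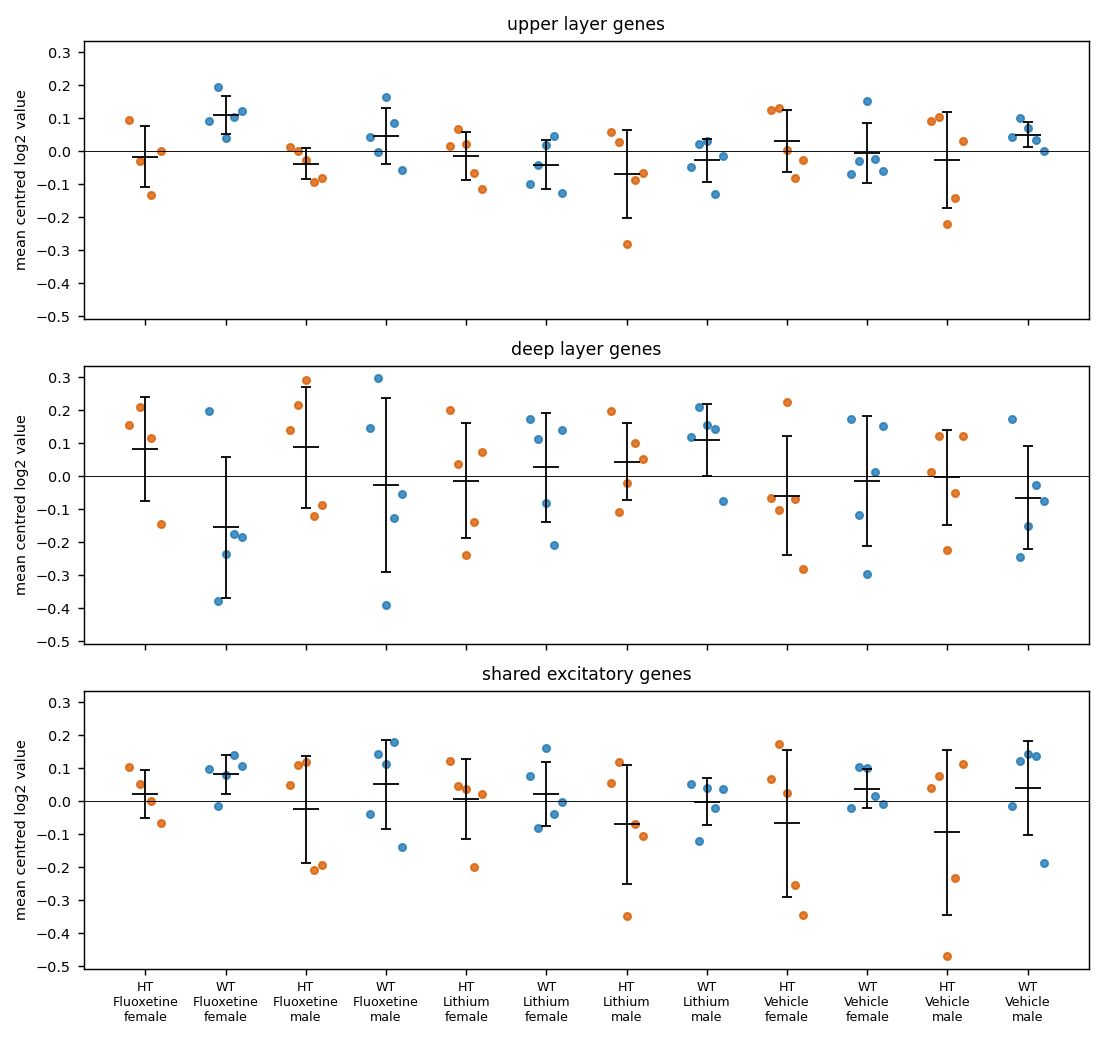
Layer level (mean centred log2 normalized counts) of upper, deep and shared genes in each library (points), with the mean and SD of each of the 12 groups. Deep levels scatter most within groups, with an SD of 0.18 against 0.088 for upper levels.

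Within groups, most of the 36 genes varied with the olfactory bulb markers. In the same limma fit with the mean log2 level of the 5 bulb genes as a covariate beside the 12 group means, 28 of the 36 genes had a called slope, 4 higher and 24 lower with more bulb signal. Over all genes tested 48.9% had one, 23.7% higher and 25.3% lower. By layer, 1 upper gene was higher and 7 lower, 3 deep genes were higher and 10 lower, and no shared gene was higher and 7 were lower. The slopes describe how libraries of one group differ and carry no statement about genotype or drug.

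Syt6 had the steepest slope among the 36, at 0.31 ± 0.02 log2 units per log2 unit of bulb level (SE; limma adjusted p = 2.19e-16). It had 3523 normalized counts in the library with the highest bulb level, HT-labelled vehicle male 3, and 425 in that with the lowest, WT-labelled fluoxetine male 3, which are also its own highest and lowest values. Nxph4 followed at 0.26 ± 0.04 (limma adjusted p = 2.54e-07), with 157 and 14.4 normalized counts in the same libraries. Etv1, an ETS factor of layer V, rose by 0.07 ± 0.01 (limma adjusted p = 2.11e-11), and Cux1 was the upper layer gene that rose, by 0.04 ± 0.006 (limma adjusted p = 1.43e-07). These 4 were the genes that rose with bulb signal.

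Fezf2 and Cplx3 fell most among deep layer genes. Fezf2 had a slope of -0.14 ± 0.02 (SE; limma adjusted p = 8.64e-09) and 424 normalized counts at the highest against 856 at the lowest bulb level. Cplx3 had a slope of -0.13 ± 0.03 (limma adjusted p = 0.000577), with 163 and 246 normalized counts in those libraries. Tbr1, the T-box factor of corticothalamic neurons, fell with a slope of -0.09 ± 0.01 (limma adjusted p = 1.82e-08), with 2069.7 and 3698 normalized counts. Deep layer genes held both the steepest rise and the steepest falls of the 36.

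Among shared genes, the basic helix-loop-helix factors of maturing excitatory neurons fell most. Neurod2 had a slope of -0.11 ± 0.01 (SE; limma adjusted p = 3.52e-09) and 1033 normalized counts at the highest against 1943 at the lowest bulb level. Neurod6 had a slope of -0.10 ± 0.01 (limma adjusted p = 1.26e-08), with 1747 and 3636 normalized counts. Their relative Neurod1 had a slope of 0.0009 ± 0.012 (limma adjusted p = 0.958) and Lmo3 one of 0.0095 ± 0.018 (limma adjusted p = 0.689). Among upper layer genes Otof fell by 0.058 ± 0.014 (limma adjusted p = 0.000491) and the calcium buffer gene Calb1 by 0.053 ± 0.010 (limma adjusted p = 2.4e-05), while Pou3f2 stood at 0.0019 ± 0.0075 (limma adjusted p = 0.857). With 9 bulb neuroblast genes (such as Sp8, Dlx1 and Dcx) in place of the projection neuron list, 4 genes were higher and 25 lower, against 53% of all genes tested (25.9% higher and 27.1% lower).

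**Figure D4:**
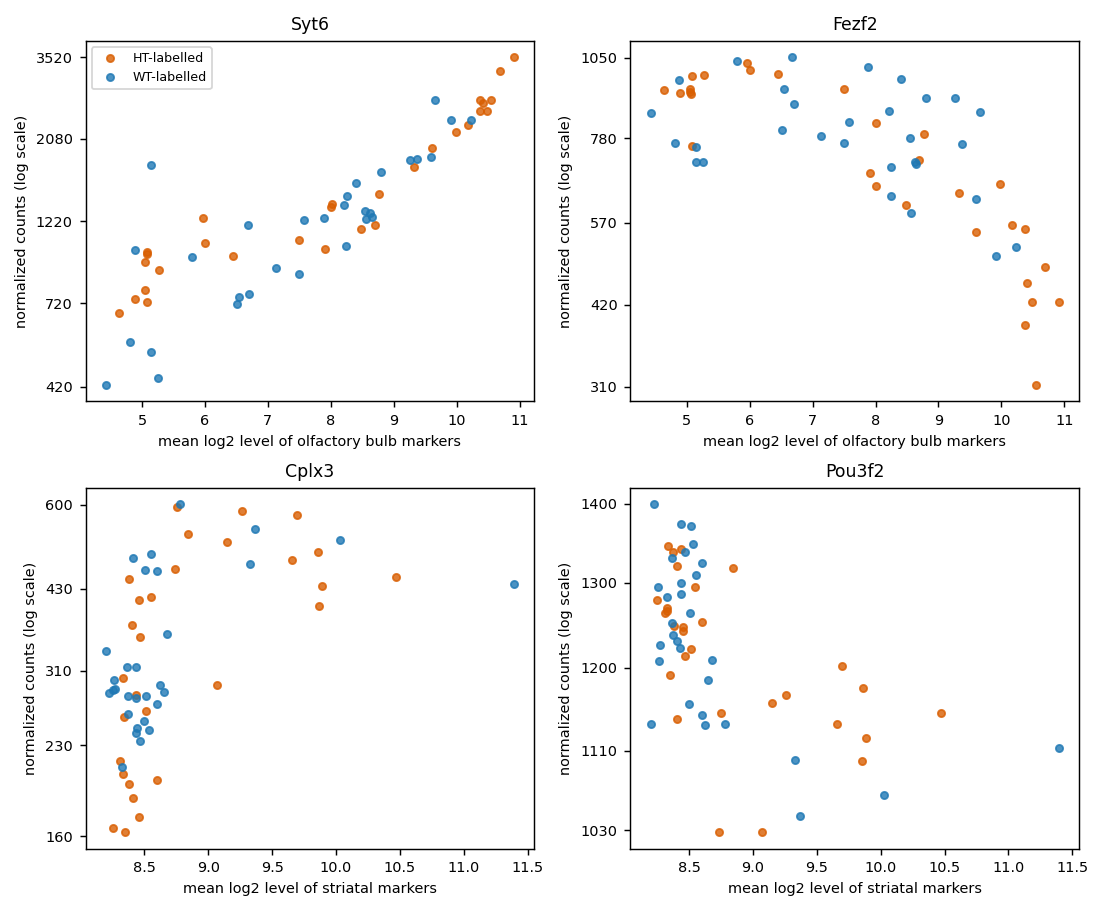
Normalized counts (log scale) of single genes in each of the 59 libraries against the mean log2 level of bulb or striatal markers, coloured by genotype label. Syt6 and Fezf2 are drawn against bulb markers, and Cplx3 and Pou3f2 against striatal markers. Syt6 climbs with bulb signal and Fezf2 descends, and libraries of both genotype labels are spread along the axis.

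Most genes with a called positive slope on striatal markers were deep layer genes. With the mean log2 level of the striatal list as the covariate, 12 of the 36 genes had a called slope, 8 higher and 4 lower, against 4.37% of all genes tested (3.27% higher and 1.1% lower). Deep layer genes made up 7 of the 8 higher ones, and their median slope was 0.13, against -0.03 for upper layer, -0.0045 for shared and -0.0018 for all genes. Both called upper layer genes were lower. Slopes of the lists overlapped, and no test was made between them. In the same libraries 8 of 8 oligodendrocyte genes were called higher, and the part of white matter or striatum in these slopes was not tested.

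Cplx3 had the steepest striatal slope, at 0.45 ± 0.10 log2 units per log2 unit of striatal level (SE; limma adjusted p = 0.00355). Sulf1 followed at 0.36 ± 0.07 (limma adjusted p = 0.000229), with 949 normalized counts in the library with the highest striatal level, WT-labelled lithium male 2, and 519.96 in that with the lowest, WT-labelled fluoxetine female 2. Bcl11b, a zinc finger factor that both deep layer and striatal projection neurons express, rose by 0.22 ± 0.03 (limma adjusted p = 6.41e-06), with 3421 and 1642 normalized counts. The other 4 deep layer genes that rose were Hs3st4, a heparan sulfate sulfotransferase gene, at 0.23, Tle4 at 0.21, Rprm at 0.13 and Pcp4 at 0.12.

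Etv1 was the deep layer gene that fell, at -0.13 ± 0.03 (SE; limma adjusted p = 0.0158). Trib2 stood at -0.002 ± 0.046 (limma adjusted p = 0.989). Pou3f2 fell by 0.10 ± 0.02 (limma adjusted p = 0.000526) and Rasgrf2 by 0.09 ± 0.03 (limma adjusted p = 0.0442) among upper layer genes, and Cux2 stood at -0.09 ± 0.04 (limma adjusted p = 0.189). Scnn1a, at 0.22 ± 0.07 (limma adjusted p = 0.0755), and Otof, at 0.15 ± 0.05 (limma adjusted p = 0.0773), lay on the other side without passing. Of the shared genes, T-cadherin gene Cdh13 rose by 0.17 ± 0.04 (limma adjusted p = 0.00525) and Neurod1 fell by 0.14 ± 0.03 (limma adjusted p = 0.00301). Lmo3 stood at 0.15 ± 0.05 (limma adjusted p = 0.123) and Mef2c at -0.06 ± 0.03 (limma adjusted p = 0.433).

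Without the 8 libraries with high striatal markers, 51 remained and 7 of the 36 genes had a called striatal slope. Over all genes tested 490 had one, against 736 with all libraries. Of the 12 called before, 6 were called again with the same sign, and their slopes were steeper. Cplx3 stood at 1.18 ± 0.24 (SE; limma adjusted p = 0.00328), Sulf1 at 0.81 (limma adjusted p = 0.00215), Hs3st4 at 0.49 (limma adjusted p = 0.0422) and Bcl11b at 0.44 (limma adjusted p = 0.00089). Pou3f2 stood at -0.22 (limma adjusted p = 0.00673) and Neurod1 at -0.33 (limma adjusted p = 0.0205). The seventh was Ntsr1, the neurotensin receptor gene of corticothalamic neurons, at 0.64 (limma adjusted p = 0.000448). The 6 genes that lost the call kept their sign, with slopes of 0.36 for Tle4 (limma adjusted p = 0.0639), 0.20 for Pcp4 (0.0882), 0.14 for Rprm (0.499), 0.28 for Cdh13 (0.159), -0.15 for Rasgrf2 (0.253) and -0.08 for Etv1 (0.706).

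**Figure D5:**
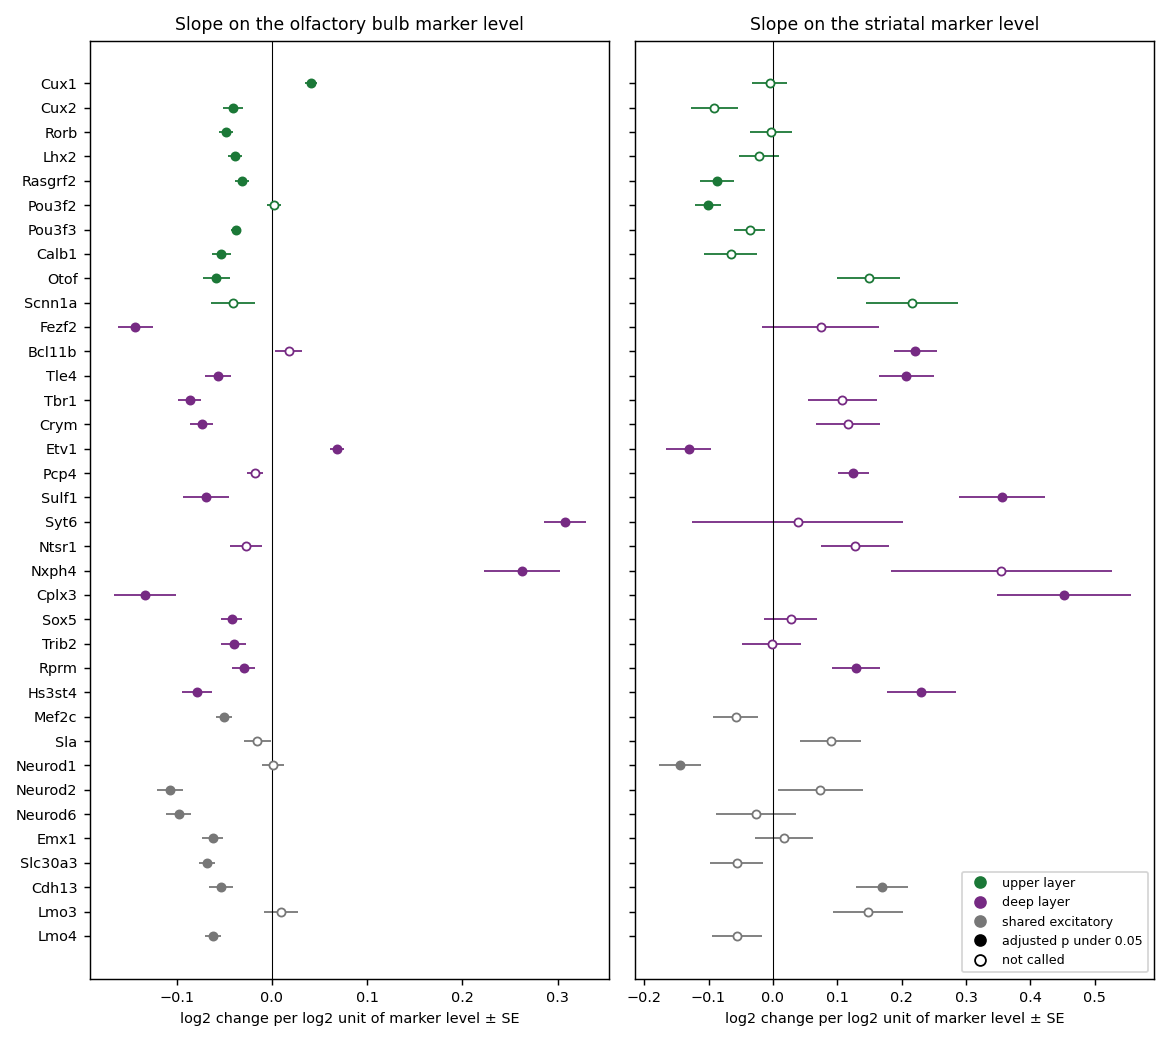
Slopes of the 36 genes (points, with SE bars) on the bulb and on the striatal marker level, in log2 units per log2 unit, coloured by layer list and filled where the adjusted p was under 0.05. Most genes lie below 0 for the bulb, with Syt6 at 0.31 and Nxph4 at 0.26 apart, and deep layer genes lie mostly above 0 for the striatum.

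Other genes known from cortical layers were read beside the 36, from lists of 15 upper, 25 deep and 20 shared excitatory genes of which 59 were tested. Between genotypes none was higher and 4 were lower in HT-labelled libraries, to be read against 3.67% of all genes called higher and 4.31% lower. The upper layer genes were Cdh8, a cadherin, at -0.15 ± 0.04 on the log2 scale (SE; limma adjusted p = 0.0234), the endoplasmic reticulum protein gene Wfs1 at -0.12 ± 0.03 (limma adjusted p = 0.0266) and the semaphorin receptor gene Plxnd1 at -0.16 ± 0.05 (limma adjusted p = 0.0302). The shared gene was Nrn1, which encodes neuritin, at -0.16 ± 0.05 (limma adjusted p = 0.0438). Under lithium the potassium channel gene Kcnh5 of the upper list fell by 0.17 ± 0.04 (limma adjusted p = 0.0117) and Vat1l, a marker of layer V projection neurons, rose by 0.15 ± 0.04 (limma adjusted p = 0.0431), to be read against 2.8% of all genes called higher and 1.61% lower. None was called for fluoxetine or sex, where 0.0653% and 0.154% of all genes were.

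Many genes of these lists had called slopes on the tissue markers. For the bulb, 17 of 20 other shared genes were lower and 3 higher, with Slc17a7 at -0.06 and the kinase gene Camk2a at -0.07 below 0 and Slc17a6, a second vesicular glutamate transporter, at 0.11 above 0. Other upper genes were 5 higher and 8 lower, and other deep genes 7 higher and 9 lower. Of all genes 23.7% were higher and 25.3% lower. For the striatum, 7 other deep genes were higher and none lower, led by the opioid receptor gene Oprk1 at 0.76 ± 0.09 (SE; limma adjusted p = 4.56e-08), the nuclear receptor gene Nr4a2 at 0.63 ± 0.10 (limma adjusted p = 1.72e-05) and the forkhead gene Foxp2 at 0.45 ± 0.05 (limma adjusted p = 9.58e-09). Other upper genes were 2 lower and none higher, Stard8 at -0.17 and the cell adhesion gene Nectin3 at -0.18. Of the other shared genes, Arpp21, which encodes a cyclic AMP-regulated phosphoprotein, was higher, at 0.11 ± 0.02 (limma adjusted p = 0.00169). Of all genes 3.27% were higher and 1.1% lower with striatal signal.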

How the data were processed

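The authors deposited 1 table of normalized counts per gene for 59 libraries, a signal from stranded mRNA libraries (TruSeq). Per the submitters' processing notes, the tools included DESeq2 1.19.11, Salmon 0.11.2 and R 3.6.0, with the genome build GRCm38. The values are not whole and their low values are not whole multiples of a common step (10.6 to 39.7% of values under 60 within 0.02 of one), so sequencing depth is unknown and no count model was used. Columns were matched to samples by title.

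The test was limma (version 3.58.1, with statmod 1.5.0 in R 4.3.3) applied to log2(normalized count + 1), with 12 group means, trended and robust empirical Bayes, and Benjamini-Hochberg adjustment over 16839 genes with a mean of at least 10, called at an adjusted p under 0.05. Fold changes on this scale understate those of low genes. HT minus WT, drug minus vehicle and female minus male were averaged over strata with equal weight. Marker levels are means of log2 values over a list. The script was tested on simulated data. Alternatives covered the pseudocount, the filter, normalization (trimmed mean of M values, computed from its published definition), shrinkage, marker covariates, a replicate block and leaving out libraries. Full values were given for each called gene of the 36 in an averaged comparison, otherwise for the 3 with the smallest p, and for the 2 steepest slopes in each direction and layer. Bcl11b, Etv1, Tbr1, Rasgrf2 and other genes beyond this rule were named after their values were seen. The genes, lists and tests were chosen with earlier results of these data known. Gene positions are GENCODE's on GRCm38, and promoters were read with Python 3.11.15 and pandas 2.3.3; figures used matplotlib 3.10.9.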

Additional observations from a re-analysis of the deposited data

Results flagged for a closer look

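In 7 of 120 groups of values, 1 library stood far from the rest of its group by Dixon's criterion, which chance meets in about 1 of 20 groups. Otof, the upper layer calcium sensor gene, accounted for 3 of them. It had 866.9 normalized counts in HT-labelled fluoxetine female 3, against 934.9 to 947.3 in the rest of that group. HT-labelled vehicle female 4 had 716.3, against 1024 to 1075 in the rest. WT-labelled lithium male 2, the library with the highest striatal marker level, had 1490, against 779.2 to 857 in the rest.

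Emx1 had 279 normalized counts in WT-labelled fluoxetine male 5, against 437 to 452.2 in the rest of its group. Trib2 had 1921 in WT-labelled vehicle male 1, against 1499 to 1602, and Cux1 had 3093 in WT-labelled vehicle male 5, against 2618 to 2699. The mean centred log2 level of the upper layer genes was 0.15 in WT-labelled vehicle female 3, against -0.068 to -0.022 in the rest of that group.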

How the results depend on the processing

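No fold change of a named gene recomputed in the averaged comparisons changed sign under the alternatives run. Of 20 layer differences, none of them tested, 2 changed sign when 1 library was left out: upper minus deep for fluoxetine (-0.019, at most 0.0082 without WT-labelled vehicle female 3) and shared for lithium (0.0097, at least -0.014 without HT-labelled vehicle male 3). The upper level for fluoxetine did so without the high striatal libraries (0.014, then -0.0034). In the tally of alternative values, 434 stayed close to those reported and 27 moved, and all 27 were counts of calls. Layer differences also changed without being among the 27. The deep genotype difference of 0.044 was 0.0024 with only genes of a mean of at least 100 normalized counts. For genes called under fluoxetine (11), other values were 7 without trend and robust shrinkage, 4 with no filter on low values, 41 with a replicate block, 35 with the bulb level, 33 with both marker levels, 1 without the libraries of high striatal level and 4 with only the groups compared. For genotype, 877 genes were called with no filter on low values (1344 reported). Of the 36 genes, 0 were called with no filter, with the striatal level or without the high striatal libraries, and 2 with the bulb level or both levels. For lithium (742 genes), 483 were called with no filter, 1217 with the bulb level and 1273 with both. Of the 36, 3 were called for lithium with the bulb level.

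The main test did not pair libraries by replicate number. Same-numbered libraries of different groups correlated by -0.37 to 0.55 (median 0.048, against -0.019 for different numbers). Of 59 libraries, 19 correlated best with their own number, and no level for chance was computed for that count. As a hint from the data, the bulb level followed the number in HT-labelled libraries, at 4.63 to 6.01 in replicate 1 and 9.33 to 10.55 in replicate 4, whereas WT-labelled ones had 4.88 to 9.65 and 6.51 to 9.59. With the replicate block, 2 of the 36 genes were called for lithium, 1 for sex (Trib2, -0.16, limma adjusted p = 0.0323), 1 for genotype within fluoxetine, 1 for lithium within WT-labelled mice and 1 for lithium within WT-labelled males. The bulb level also gave 1 for genotype within fluoxetine (Nxph4, 1.02, limma adjusted p = 0.035) and 1 for lithium within WT-labelled mice (Cux1, -0.16, limma adjusted p = 0.0352), as did both levels for the last. Shares of all genes called in these comparisons under the block or the marker levels are not given here. The counts among the 36 therefore cannot be set against the calls over all genes. Striatal slopes without the high striatal libraries were called in 7 of the 36 genes (12 reported) and 490 genes (736 reported).

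Leaving out each library in turn, genotype calls ran from 0 to 3 of the 36 and 1097 to 1677 genes, lithium calls from 1 to 2 and 561 to 881 genes, and fluoxetine calls from 4 genes (without WT-labelled fluoxetine male 1) to 74 (without HT-labelled vehicle male 1). For the drug calls only libraries of the groups compared were left out, in 40 fits for lithium and 39 for fluoxetine. Sex calls ran from 25 to 33 genes. Bulb slopes were called in 27 to 30 of the 36 and 7754 to 8444 genes, and striatal slopes in 10 to 13 of the 36 and 577 to 795 genes. With trimmed mean of M values factors, the all-gene median shifted by no more than 0.0036. Depth is unknown, so no counting error could be given for low genes such as Nxph4.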
